A study of Rattus norvegicus with 7 samples.

Results

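Eicosanoid synthesis genes encode the enzymes that turn membrane arachidonic acid into prostaglandins and leukotrienes. They were followed here in alveolar type 2 cells, the lung epithelium that makes surfactant, from ethanol-fed and control-fed rats. The genes were chosen by name, with earlier results of these data known. They were Pla2g4a, Pla2g2a, Ptgs1, Ptgs2, Alox5, Alox15, Alox5ap and Ltc4s, and every probe set annotated to one of these 8 symbols alone was taken. Of the 8 genes, 7 were measured, by 10 probe sets of the 8740 tested. Ltc4s, whose product joins glutathione to leukotriene A4, had no probe set in the annotation used here.

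The Etoh group was 3 male Sprague Dawley rats given a Lieber-DeCarli liquid diet with ethanol as 36% of calories for 6 weeks. The Ctrl group was 4 male rats of the same strain given the isocaloric diet without ethanol for the same time. The animals' age is not stated in the labels. Type 2 cells were separated by immuno-adsorption, which can leave other lung cells in the isolate, and RNA from each rat was measured on 1 Affymetrix rat expression array. The Etoh arrays carry replicate numbers 2 to 4 and the Ctrl arrays 1 to 4, and all Etoh arrays have higher array numbers than all Ctrl arrays, so diet and any effect of that order cannot be told apart. Ctrl 2 was the array least like the others over all probe sets, with a mean correlation of 0.947 with them against 0.963 to 0.971 for the other arrays, and Ctrl 4 stood apart in Il1b and Tnf. Etoh 2 had the lowest summed signal of type 2 cell markers.

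The type 2 cell label was checked against 12 listed markers, of which 6 were measured. Their summed linear signal was 10247 to 13506 in the Etoh arrays and 12413 to 13437 in the Ctrl arrays, and the low value of 10247 was Etoh 2. With ethanol 3 of the 6 had a higher mean and 3 a lower one, with 0 past the limma threshold and 0 at unadjusted p under 0.05. The surfactant gene Sftpc averaged 12.58 with ethanol and 12.80 in the controls, and Sftpb 11.49 with ethanol and 11.37 in the controls. The surfactant protein D gene Sftpd differed by -0.26 and the lung transcription factor gene Nkx2-1 by -0.41 (limma adjusted p = 0.967 for both), and Etoh 2 was the lowest of the 7 arrays in both, at 9.36 and 5.46. It was also the lowest in Muc1, a mucin gene whose difference was 0.035. The part of this array's lower type 2 signal in the results was not tested, and for Pla2g4a and Ptgs2 the values without it are given.

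A phospholipase A2 first frees arachidonic acid from membrane phospholipid. Cyclooxygenases convert it to the precursor of prostaglandins and thromboxane, and lipoxygenases oxygenate it on the route to leukotrienes and related acids. In the lung, prostaglandin E2 and leukotrienes act on airway and vessel tone, on leukocyte recruitment and on fluid balance, and alveolar macrophages and other leukocytes are well-known sources of leukotrienes.

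The promoters of both cyclooxygenase genes are shown because Ptgs1 and Ptgs2 gave the only member probe sets whose groups did not overlap, and because the pair is the textbook contrast of a constitutive and an inducible gene. The sequences are RefSeq's for the GRCr8 assembly, from 250 bases before to 50 bases after the gene start. Capitals mark matches on either strand to the E-box CACGTG, the GC box GGGCGG and the CCAAT box, and none of the marked matches overlap.
Ptgs1, chr3:39981169-39981468, plus strand: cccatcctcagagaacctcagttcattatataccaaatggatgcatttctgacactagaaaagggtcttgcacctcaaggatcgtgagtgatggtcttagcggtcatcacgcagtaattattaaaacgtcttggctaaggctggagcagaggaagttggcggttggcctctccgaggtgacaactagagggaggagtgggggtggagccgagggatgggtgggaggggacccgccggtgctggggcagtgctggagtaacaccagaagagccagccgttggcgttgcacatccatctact
Ptgs2, chr13:64713813-64714112, plus strand: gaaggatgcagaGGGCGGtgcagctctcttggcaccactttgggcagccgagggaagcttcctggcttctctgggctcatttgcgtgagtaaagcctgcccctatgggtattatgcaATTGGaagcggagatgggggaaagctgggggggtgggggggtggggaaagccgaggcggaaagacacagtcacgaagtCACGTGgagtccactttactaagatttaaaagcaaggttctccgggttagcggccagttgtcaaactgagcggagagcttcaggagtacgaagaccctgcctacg

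The Ptgs2 window held an E-box 55 bases before the start, a reversed CCAAT box that begins 133 bases before it and a GC box that begins 238 bases before it. The Ptgs1 window held none of these 3 letter strings. Of all 33469 rat promoters of this length, 6.42% held the E-box, 37.5% the CCAAT box and 33.1% the GC box. Searches for TATAAA, the AP-1 site TGANTCA, the C/EBP site TTNCGNAA and the NF-kB decamer found no match in either window, and 14.2%, 7.33%, 2.50% and 7.51% of all promoters held them. Only these letter strings were searched, so a site that departs from them would be missed. Promoters were listed for 5 of the 7 measured genes, and not for Alox15 and Alox5ap.

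No eicosanoid synthesis probe set passed the test between ethanol-fed and control rats. With limma and Benjamini-Hochberg adjustment over all 8740 probe sets, 0 of 10 passed at adjusted p under 0.05, against 0.149% of all probe sets, and 0 of 10 were at unadjusted p under 0.05, against 4.58% of all. The adjusted p-values ran from 0.967 to 0.982. Of the 10 probe sets, 6 had a higher mean with ethanol and 4 a lower one, and the median log2 difference was 0.086, beside -0.0051 for all probe sets. The median size of the difference, without its sign, was 0.17 in the 10 probe sets and 0.11 over all. The 95% confidence intervals together spanned -0.54 to 0.57 on the log2 scale, so none of the 10 intervals reached a fold above 1.49 or below 0.688.

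With each array left out in turn, the differences kept their sign in Pla2g4a (0.040 to 0.33), Pla2g2a (-0.25 to -0.086), Ptgs1 (0.12 to 0.23), both Ptgs2 probe sets (0.10 to 0.24 and -0.29 to -0.13) and both Alox5ap probe sets, and crossed 0 in Alox5 and both Alox15 probe sets. Without Ctrl 2 the differences were 0.26 for Pla2g4a, 0.19 for Ptgs1, 0.19 and -0.27 for Ptgs2 and 0.030 and 0.17 for Alox5ap, and 0 of 10 passed.

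**Figure D1:**
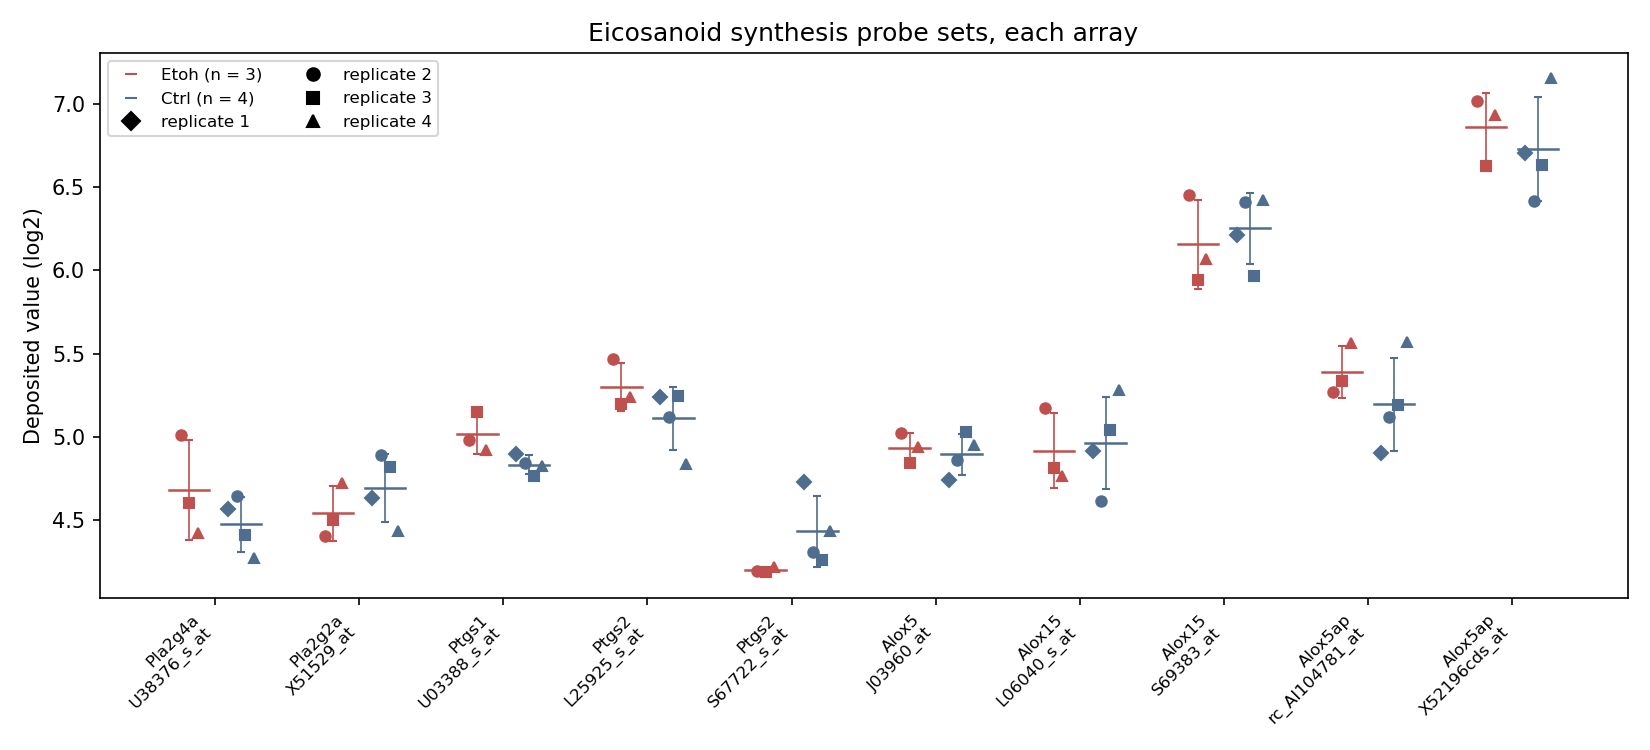
Deposited log2 value of each eicosanoid synthesis probe set on each array, Etoh (n = 3) left of Ctrl (n = 4). Symbols stand for replicates, horizontal lines for group means and bars for 1 SD; levels of different probe sets are not comparable. The ranges overlap in all but Ptgs1 U03388_s_at and Ptgs2 S67722_s_at.

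**Figure D2:**
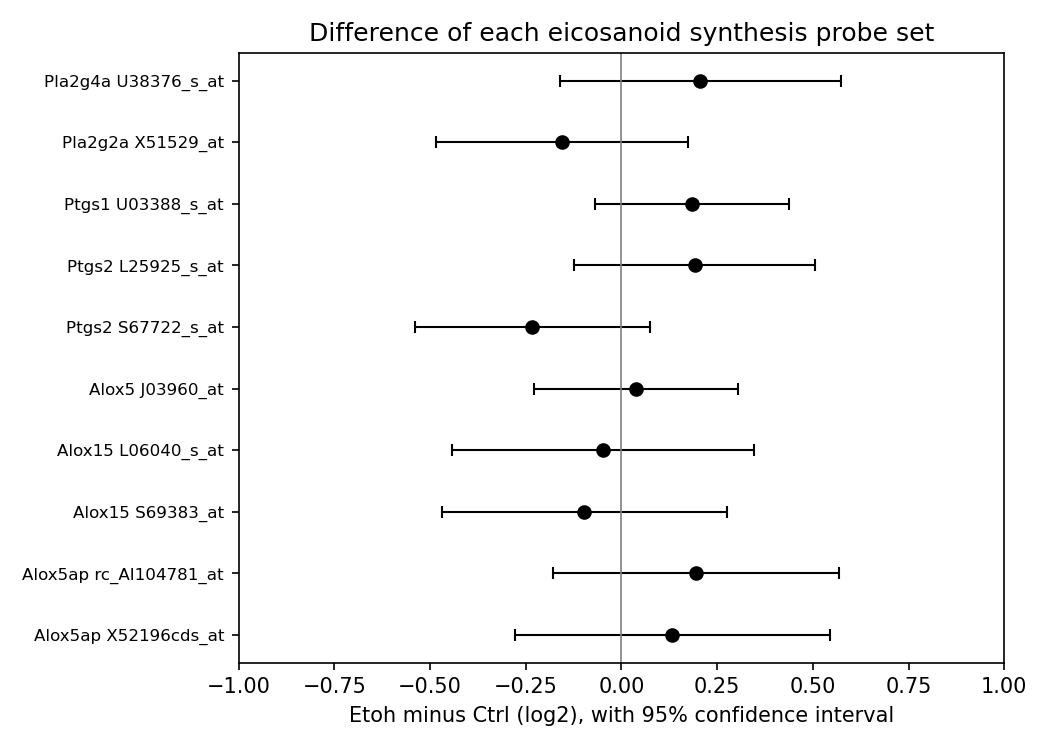
Etoh minus Ctrl on the log2 scale for the 10 probe sets, with 95% confidence intervals from limma. Every interval includes 0.

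The phospholipases that release arachidonic acid come first in the pathway. Pla2g4a encodes the calcium-dependent cytosolic phospholipase A2 that prefers arachidonate-containing lipids. Its probe set U38376_s_at read 5.01, 4.60 and 4.42 in Etoh 2, 3 and 4, against 4.56, 4.65, 4.41 and 4.28 in Ctrl 1, 2, 3 and 4. Only Etoh 2 lay above the control range, and the groups overlapped. The log2 difference was 0.21 (SE 0.163, limma adjusted p = 0.967), and without Etoh 2 it was 0.040.

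Pla2g2a encodes a secreted phospholipase A2 of the inflammatory group. X51529_at read 4.40, 4.50 and 4.72 in Etoh 2, 3 and 4, against 4.63, 4.89, 4.82 and 4.44 in Ctrl 1, 2, 3 and 4. Etoh 3 and Etoh 4 lay inside the control range, and Etoh 2 lay just below it. The difference was -0.15 (SE 0.146, limma adjusted p = 0.967).

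The cyclooxygenases gave the 2 member probe sets whose groups did not overlap. Over all probe sets the groups did not overlap in 5.24%, with the ethanol range above in 2.53% and below in 2.71%, and with 10 probe sets a count of 2 (1 above, 1 below) is too small to be read as a property of these genes. Ptgs1, the constitutive cyclooxygenase, was measured by U03388_s_at. It read 4.98, 5.15 and 4.92 in Etoh 2, 3 and 4, against 4.90, 4.84, 4.76 and 4.83 in Ctrl 1, 2, 3 and 4. Each of the ethanol arrays exceeded each control, but Etoh 4 cleared Ctrl 1 by little. The difference was 0.18, or 1.14-fold (95% confidence interval 0.953 to 1.35-fold), with limma adjusted p = 0.967 and unadjusted p = 0.137. Without variance moderation the unadjusted p was 0.0404, and with array weights it was 0.0220 (adjusted p = 0.963 and 0.356).

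Ptgs2, the inducible cyclooxygenase, was read by 2 probe sets that differed in direction. L25925_s_at read 5.47, 5.20 and 5.24 in Etoh 2, 3 and 4, against 5.24, 5.12, 5.25 and 4.84 in Ctrl 1, 2, 3 and 4. Here Etoh 2 was the highest array and Ctrl 4 the lowest, and the other arrays lay together. The difference was 0.19 (SE 0.141, limma adjusted p = 0.967), and without Etoh 2 it was 0.11.

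S67722_s_at, the other Ptgs2 probe set, read 4.20, 4.19 and 4.22 in Etoh 2, 3 and 4, against 4.73, 4.31, 4.26 and 4.44 in Ctrl 1, 2, 3 and 4. The ethanol arrays were nearly identical and lay just below the lowest control, while the controls were spread out with Ctrl 1 at the top. The SD was 0.016 with ethanol and 0.211 in the controls. The difference was -0.23 (SE 0.137, limma adjusted p = 0.967), and without Ctrl 1 it was -0.13.

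The gap between the 2 Ptgs2 probe sets, L25925_s_at minus S67722_s_at, was 1.10 ± 0.146 with ethanol and 0.677 ± 0.269 in the controls (SD, n = 3 and n = 4). All 3 ethanol gaps, the lowest at 1.01, lay above the highest control gap of 0.987. The exact two-sided permutation p was 0.0571, the smallest that 3 against 4 arrays can give, and 0.171 after Benjamini-Hochberg adjustment over the 3 genes with 2 probe sets. This test was chosen after the values were seen. The annotation gives both probe sets the single symbol Ptgs2, so a direction for Ptgs2 as a gene cannot be given from these arrays.

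The signal of markers for fibroblasts and smooth muscle, cells that can express both cyclooxygenases, also differed in range. Their summed linear signal over 11 of 11 listed genes was 413 to 462 in the Etoh arrays and 464 to 655 in the Ctrl arrays, with 10 of 11 lower with ethanol and 0 past the limma threshold. The sums of Etoh 2 at 462 and Ctrl 4 at 464 nearly met. At unadjusted p under 0.05 there were 5 of the 11, against 4.37% of all genes. These were Col1a1, Col1a2, Col3a1, Eln and Tagln. Each had its lowest control value on Ctrl 4, so they are not separate observations, and the counts were not tested. Acta2, Fn1, Pdgfra and Myh11 were lower by their brightest probe set, but another stood at 0.21, 0.22, 0.21 and 0.046. The part of this signal in the Ptgs1 and Ptgs2 values was not tested. In isolates like these, fewer cells of a type and less RNA per cell cannot be told apart.

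The lipoxygenases showed the smallest differences. Alox5 encodes arachidonate 5-lipoxygenase, which starts leukotriene synthesis. J03960_at read 5.02, 4.85 and 4.94 in Etoh 2, 3 and 4, against 4.74, 4.86, 5.03 and 4.95 in Ctrl 1, 2, 3 and 4. The groups covered the same range. The difference was 0.039, with a 95% confidence interval of -0.23 to 0.31 and limma adjusted p = 0.980. Its SD over the 7 arrays, 0.102, stood at percentile 7.62 of all probe sets, so it varied less than most.

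Alox15 encodes the leukocyte-type lipoxygenase, which in the rat makes hydroxy acids and lipoxin precursors. S69383_at, the brighter of its probe sets, read 6.45, 5.94 and 6.07 in Etoh 2, 3 and 4, against 6.21, 6.41, 5.96 and 6.42 in Ctrl 1, 2, 3 and 4. L06040_s_at read 5.17, 4.81 and 4.76 in Etoh 2, 3 and 4, against 4.92, 4.61, 5.04 and 5.28 in Ctrl 1, 2, 3 and 4. In both, Etoh 2 was the highest ethanol array and Ctrl 4 the highest control. The differences were -0.097 and -0.047 (limma adjusted p = 0.971 and 0.982). The gap between the 2 probe sets was 1.24 ± 0.095 with ethanol and 1.29 ± 0.372 in the controls (SD, n = 3 and n = 4, exact permutation p = 0.914).

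Alox5ap encodes FLAP, the membrane protein that presents arachidonic acid to 5-lipoxygenase, and it is best known from myeloid cells. X52196cds_at read 7.02, 6.63 and 6.93 in Etoh 2, 3 and 4, against 6.70, 6.42, 6.63 and 7.15 in Ctrl 1, 2, 3 and 4. The second probe set, rc_AI104781_at, read 5.27, 5.33 and 5.56 in Etoh 2, 3 and 4, against 4.90, 5.12, 5.19 and 5.57 in Ctrl 1, 2, 3 and 4. In both probe sets Ctrl 4 was the highest of the 7 arrays, in the second by little over Etoh 4. The differences were 0.13 and 0.19 (SE 0.183 and 0.166, limma adjusted p = 0.971 and 0.967), and without Ctrl 4 they were 0.28 and 0.32. Both Alox5ap probe sets had a higher ethanol mean under every left-out array, from 0.030 to 0.28 and from 0.097 to 0.32.

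Signal brightness differed between probe sets, and it limits what a small change could show. X52196cds_at of Alox5ap lay between percentiles 90.2 and 94.2 of all probe sets on an array, and S69383_at of Alox15 between 83.3 and 90.2. Of the other 8, 7 stayed under the 75th percentile on every array. S67722_s_at of Ptgs2 was the dimmest of the 10 by this measure, between percentiles 36.3 and 54.6. The array-wide median lay between 4.56 and 4.62. No detection calls were used, so whether these signals exceed background is not known, and percentiles state brightness and not amount of transcript.

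Il1b and Tnf, cytokine genes whose products are known inducers of Ptgs2, split the arrays in a way that did not follow diet. Il1b, which encodes interleukin 1 beta, read 6.86, 4.99 and 6.69 in Etoh 2, 3 and 4, against 5.38, 5.07, 5.18 and 8.08 in Ctrl 1, 2, 3 and 4. Tnf, the tumour necrosis factor gene, read 7.09, 5.14 and 6.48 in Etoh 2, 3 and 4, against 5.22, 4.93, 4.82 and 7.78 in Ctrl 1, 2, 3 and 4. Etoh 2, Etoh 4 and Ctrl 4 were high in both genes and the other 4 arrays were low. Il1a and the chemokine genes Ccl3, Ccl4 and Cxcl2 also had their 3 highest values on Etoh 2, Etoh 4 and Ctrl 4. Cxcl2 did so by little, at 6.38 in Etoh 2 against 6.30 in Ctrl 1. Some other genes of the inducer list did not split this way. Il6, the interleukin 6 gene, read 5.05, 5.57 and 5.74 in Etoh 2, 3 and 4. In Ctrl 1, 2, 3 and 4 it read 5.05, 5.25, 4.97 and 4.97. The early-response genes Egr1 and Fos and the NF-kB inhibitor gene Nfkbia, like Il6, had their 2 highest values on Etoh 3 and Etoh 4.

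The Ptgs2 probe sets matched that split on some arrays and not on others. L25925_s_at was highest on Etoh 2 at 5.47, where Il1b was high, and lowest on Ctrl 4 at 4.84, the array with the highest Il1b. S67722_s_at was highest on Ctrl 1 at 4.73, where Il1b was low, and next highest on Ctrl 4 at 4.44. Alox5ap X52196cds_at had its 3 highest values on the same 3 arrays as Il1b, Ctrl 4 at 7.15, Etoh 2 at 7.02 and Etoh 4 at 6.93. The other Alox5ap probe set, rc_AI104781_at, did not, with Etoh 3 at 5.33 above Etoh 2 at 5.27. Il1b was lowest on Etoh 3, at 4.99. This comparison was made after the values were seen, and no correlation is given because Il1b splits the arrays into separate clusters.

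**Figure D3:**
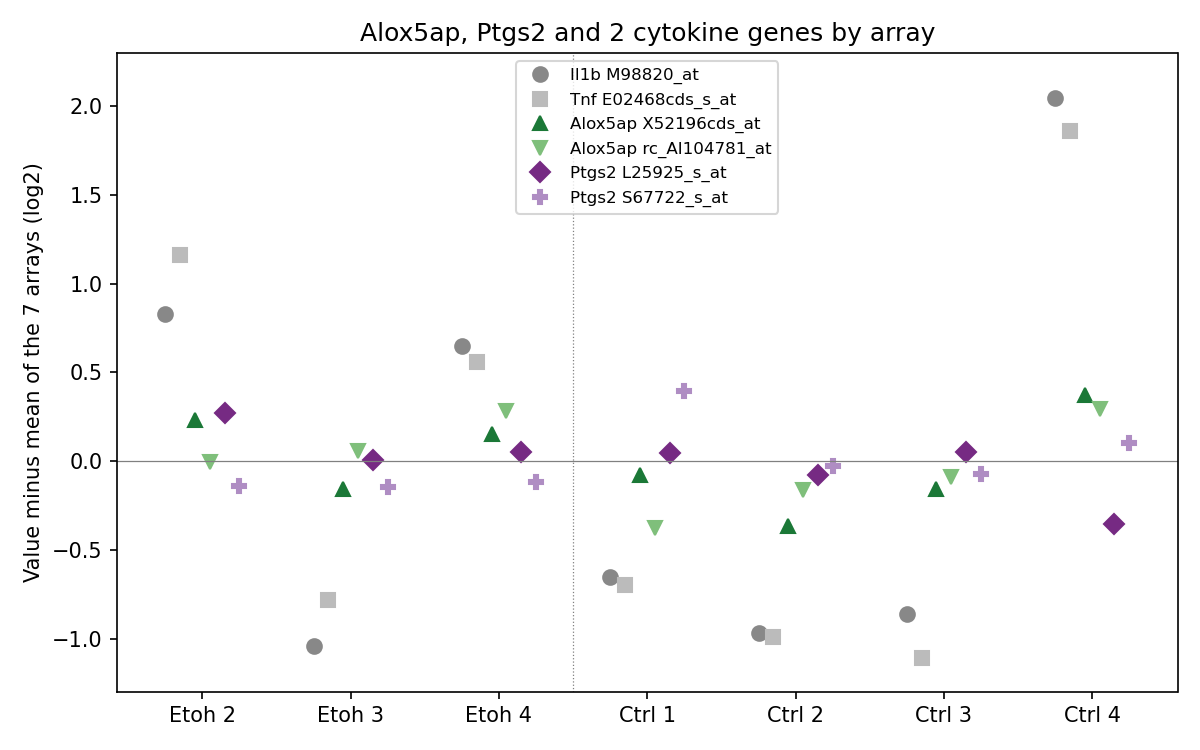
Value minus the mean of the 7 arrays, on the log2 scale, for Il1b, Tnf and the probe sets of Alox5ap and Ptgs2, Etoh arrays left of Ctrl arrays. Il1b and Tnf are high on Etoh 2, Etoh 4 and Ctrl 4, and Alox5ap X52196cds_at is above its mean on those 3 arrays. Alox5ap rc_AI104781_at is higher on Etoh 3 than on Etoh 2, and Ptgs2 L25925_s_at is at its lowest on Ctrl 4.

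Of the 15 measured genes in the list of cytokine and early-response genes tied to Ptgs2 induction, 13 had a higher mean with ethanol, as had 2209 of all 4736 genes. In limma 0 of the 15 passed, and 3 were at unadjusted p under 0.05, against 4.37% of all genes. Its median difference was 0.32, beside -0.014 for all genes. Egr1 stood at 0.89, with its probe sets between 0.11 and 0.89. Nfkbia stood at 0.67, and at 0.47 to 0.97 with each array left out. Il6 stood at 0.40, at 0.25 to 0.60 with each array left out, and at 0.79 in its other probe set. Each had limma adjusted p = 0.967. The list was chosen with earlier results of these data known, and some of its genes were high on the same arrays. The 13 genes are therefore not separate observations, and the count was not tested.

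Macrophages are a known source of Alox5ap transcript, and their markers differed in which arrays were high. Ctss, the cathepsin S gene, read 6.77, 5.96 and 6.44 in Etoh 2, 3 and 4, against 5.73, 5.57, 5.06 and 6.68 in Ctrl 1, 2, 3 and 4. The monocyte receptor gene Cd14 read 6.28, 5.87 and 5.98 in Etoh 2, 3 and 4, against 5.72, 5.68, 5.85 and 6.43 in Ctrl 1, 2, 3 and 4. Both had their highest values on Etoh 2 and Ctrl 4. The complement gene C1qb did not, at 5.21, 5.35 and 4.90 in Etoh 2, 3 and 4, against 4.84, 5.51, 5.13 and 4.85 in Ctrl 1, 2, 3 and 4. Its difference was 0.066, and -0.27 in its other probe set. C1qc, its partner subunit, was lowest on Etoh 4 at 5.19, and among the controls on Ctrl 4 at 5.53, and Lyz2 was lowest on Etoh 2 at 11.21. Of 18 listed macrophage and monocyte genes 8 were measured, with 6 higher and 2 lower with ethanol, 0 past the limma threshold and 0 at unadjusted p under 0.05.

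The summed linear signal of the 8 macrophage markers was 2821 to 4154 in the Etoh arrays and 3195 to 4642 in the Ctrl arrays, and most of it came from Lyz2, a lysozyme gene that type 2 cells express too. Without Lyz2 it was 360 to 456 in the Etoh arrays and 337 to 416 in the Ctrl arrays, with Etoh 2 and Ctrl 4 at the top of their groups. The part of macrophages in the Alox5ap values was not tested.

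Other leukocytes that make eicosanoids showed overlapping signal. The 11 mast cell and basophil markers summed to 243 to 272 in the Etoh arrays and 264 to 283 in the Ctrl arrays, the 8 neutrophil and eosinophil markers to 116 to 127 in Etoh and 118 to 129 in Ctrl, and the 4 platelet markers to 126 to 138 in Etoh and 119 to 134 in Ctrl. These sums are on a linear intensity scale, where no gene is at 0, so a sum does not show that such cells were present. Sums over the other marker lists also overlapped, for 5 type 1 cell genes at 430 to 518 in the Etoh arrays and 419 to 526 in the Ctrl arrays, and for 5 club and ciliated cell genes at 1046 to 1102 in Etoh and 783 to 1421 in Ctrl. Of the 5 club and ciliated cell genes, 3 were higher with ethanol and 2 lower, Scgb1a1 at -0.046 and Foxj1 at -0.15. Single genes in these lists differed more. The club cell list's Cyp2a3, a cytochrome P450 gene, read 7.44, 7.16 and 7.22 in Etoh 2, 3 and 4. In Ctrl 1, 2, 3 and 4 it read 6.50, 6.16, 6.13 and 5.68. The groups did not overlap in Cyp2a3, as in 4.92% of all genes. Its difference was 1.15, and 0.81 in its other probe set (for 1.15, limma adjusted p = 0.0777, unadjusted p = 0.000124). Of the type 1 genes, Pdpn stood at -0.47 and Cav1 at 0.58 (limma adjusted p = 0.967 for both, unadjusted p = 0.0232 and 0.0231). The sums were 253 to 278 in Etoh and 276 to 300.3 in Ctrl for 12 T and natural killer cell genes, and 277 to 322 in Etoh and 294 to 335 in Ctrl for 6 endothelial genes. Of the 12 T and natural killer cell genes, 10 were lower with ethanol and 2 higher, with 0 past the limma threshold. At unadjusted p under 0.05 there was 1 of the 12, Prf1 at -0.38 (limma unadjusted p = 0.0366), against 4.37% of all genes.

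Beyond the member genes, a wider list of the pathway was measured in 46 of its 84 genes, each by its brightest probe set. In limma 0 of 46 passed at adjusted p under 0.05, against 0.0211% of all 4736 genes. At unadjusted p under 0.05 there were 2 of 46, or 4.35%, against 4.37% of all genes, and the groups did not overlap in 2 of 46, against 4.92% of all. With ethanol 26 genes had a higher mean and 20 a lower one, with a median difference of 0.040, beside -0.014 for all genes. The listed lipoxygenases other than the members (5 genes) and the leukotriene and lipoxin receptors (6 genes) had no probe set of their own.

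Among phospholipases and genes that handle arachidonate, 5 of 12 had a higher mean with ethanol and 7 a lower one, with a median of -0.023. This group held both genes at unadjusted p under 0.05. Acsl3, an acyl-CoA synthetase that activates long-chain fatty acids, read 4.34, 4.75 and 5.117 in Etoh 2, 3 and 4, against 5.45, 5.40, 5.42 and 5.122 in Ctrl 1, 2, 3 and 4. All ethanol arrays lay below all controls, although Etoh 4 and Ctrl 4 nearly met. Its difference was -0.61 (SE 0.182, limma adjusted p = 0.967, unadjusted p = 0.00805), and its other probe set stood at 0.089.

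Anxa3, a calcium-dependent phospholipid-binding annexin, stood at -0.45 (unadjusted p = 0.0208), with another probe set at -0.15. Plaat3, a phospholipid acyltransferase and phospholipase, stood at -0.36 with another probe set at 0.066. Prdx6, the peroxiredoxin with phospholipase A2 activity that takes part in surfactant lipid turnover, stood at 0.27, with its 3 probe sets between 0.18 and 0.45. Anxa1, an annexin induced by glucocorticoids that restrains arachidonate release, stood at -0.072, with another probe set at 0.10. The adjusted p of Anxa3, Plaat3 and Prdx6 was 0.967 in limma, and that of Anxa1 0.982.

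Of 5 prostanoid synthases, 3 had a higher and 2 a lower mean with ethanol, and the median was 0.028. Hpgds, the haematopoietic prostaglandin D synthase gene, stood at -0.22, with another probe set at 0.11. The thromboxane synthase gene Tbxas1 stood at -0.11 and Ptgds, the lipocalin-type prostaglandin D synthase gene, at 0.098. With each array left out in turn the differences ran from -0.35 to -0.028 for Hpgds, from -0.16 to -0.025 for Tbxas1 and from 0.029 to 0.16 for Ptgds. Of 3 genes for prostaglandin inactivation and transport, the prostaglandin reductase gene Ptgr1 stood at -0.20, the transporter gene Slco2a1 at 0.098 (0.45 in its other probe set) and Hpgd, which encodes the main inactivating dehydrogenase, at 0.074. Hpgd was dim, between percentiles 14.9 and 21.5 of all probe sets on an array. Limma adjusted p-values of all 8 genes in these groups lay between 0.967 and 0.992.

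On the leukotriene side, 5 of 8 genes had a higher mean with ethanol, with a median of 0.18. Lta4h, whose product makes leukotriene B4, read 8.62, 7.96 and 8.80 in Etoh 2, 3 and 4, against 8.16, 7.45, 7.71 and 8.89 in Ctrl 1, 2, 3 and 4. It was high on the same 3 arrays as Il1b, and its difference of 0.41 (SE 0.330, limma adjusted p = 0.967) was 0.040 in its other probe set. With each array left out, it ran from 0.21 without Ctrl 2 to 0.69 without Ctrl 4. Mgst2, a microsomal glutathione transferase that in humans can make leukotriene C4, stood at 0.32, and the gamma-glutamyl transferase genes Ggt5 and Ggt1, which act on leukotriene C4, at -0.20 and -0.17. Limma adjusted p was 0.967 for all 3.

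The prostanoid receptor genes had 3 of 7 higher and 4 lower, with a median of -0.0078. Those of the prostaglandin E2 receptors that raise cyclic AMP, Ptger2 and Ptger4, stood at -0.26 and -0.25. Ptger1 stood at -0.17, with another probe set at 0.062. Ptger2 was dim, between percentiles 17.9 and 31.5 of all probe sets on an array. Of 11 epoxygenase, omega-hydroxylase and epoxide hydrolase genes 8 were higher, with a median of 0.15. Among them Cyp4f6, an omega-hydroxylase, stood at 0.18 with its ethanol values all above its control values, Cyp4a8 at 0.30 and Cyp2c11 at 0.28, with another Cyp2c11 probe set at -0.13. Each of the 6 genes named here had limma adjusted p = 0.967.

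**Figure D4:**
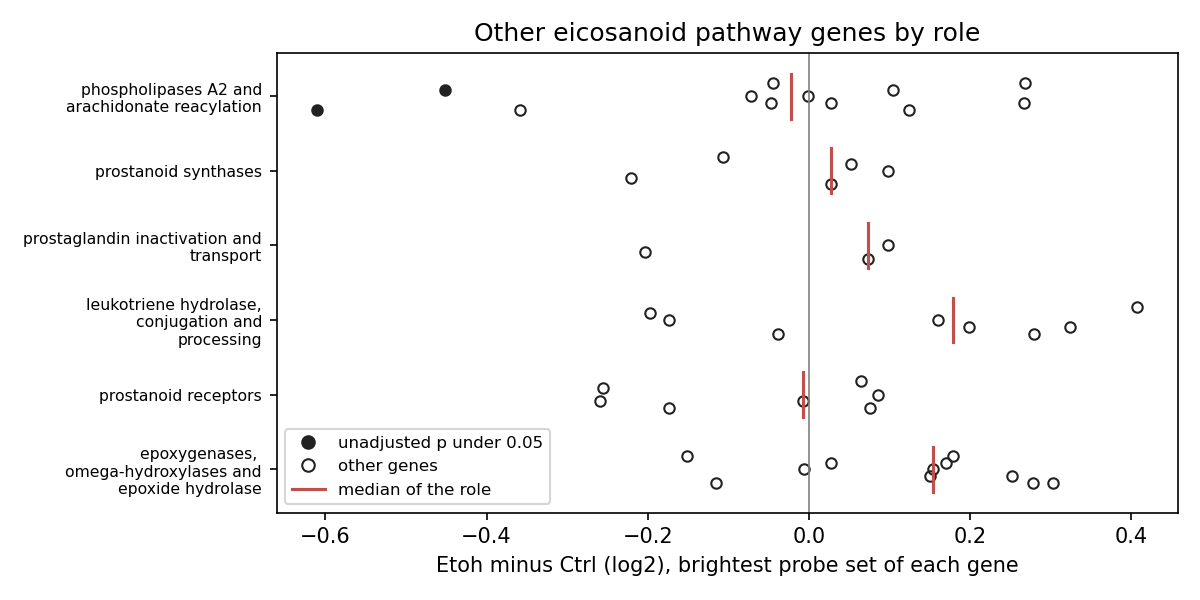
Etoh minus Ctrl on the log2 scale for the 46 other pathway genes, 1 point each, by role. Filled points mark the 2 genes at unadjusted p under 0.05, Acsl3 and Anxa3, and red lines mark the median of each role, from -0.023 to 0.18.

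Genes whose pattern over the 7 arrays was most like a member's were found by Pearson's r among 6996 probe sets of other genes. With so many compared over 7 arrays, high values arise readily, so they only describe these arrays, and no p is given. Nearest to Alox5ap X52196cds_at were Sgk1, a kinase gene (r = 0.985), Lipa, the lysosomal acid lipase gene (r = 0.983) and Xrcc5, a DNA repair gene (r = 0.978). Sgk1 read 4.84, 4.26 and 4.77 in Etoh 2, 3 and 4, against 4.49, 3.98, 4.15 and 5.10 in Ctrl 1, 2, 3 and 4, high on the same 3 arrays as X52196cds_at.

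Nearest to Ptgs2 L25925_s_at were Tgfb2, a growth factor gene (r = 0.946), Tmem276 (r = 0.908) and Cps1 (r = 0.907). Nearest to Ptgs1 were Efemp1 (r = 0.959), Ndufv3 (r = 0.957) and Pi4kb (r = 0.955), and to Alox5 Syn2 (r = 0.961), Gata4 (r = 0.951) and Tpm1 (r = 0.950). Pla2g4a was nearest to Agxt (r = 0.977), Cyp2c12 (r = 0.969) and Nup58 (r = 0.956). Pla2g2a was nearest to Slc13a1 (r = 0.953), Pxmp2 (r = 0.950) and Adcy6 (r = 0.946). Alox15 S69383_at was nearest to Ucp3 (r = 0.961), Scn3a (r = 0.947) and Prl (r = 0.942). The 25th percentile of an array lay between 3.75 and 3.87, and Efemp1, Syn2, Nup58, Slc13a1 and Prl were below it on every array.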

How the data were processed

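The deposited table, made by the authors, held 1 log2 value for each of 8799 probe sets on 7 arrays; the log2 scale was read from the values, which ran from 1.65 to 12.84. The authors' summary of probes, background correction and normalization are not given in the sources used here. Any method that pulls dim signals together would make small differences smaller still. The 59 array controls were left out, and probe sets were named from the platform annotation where it gave 1 symbol (7006 of 8740). All 10 member probe sets matched RefSeq by Entrez identifier.

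Etoh and Ctrl were compared with limma 3.58.1 in R 4.3.3, with no covariate, two-sided, with Benjamini-Hochberg adjustment over 8740 probe sets and adjusted p under 0.05 as the threshold. The model was tested on simulated data. Differences between probe sets of 1 gene were tested by exact permutation over 35 splits (scipy 1.17.1). Each rat gave 1 array, per the labels, so p-values measure the spread between animals, and the small number of arrays limits the precision. No pair of arrays held identical values (r from 0.929 to 0.983).

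The members and lists were chosen with earlier results of these data known. The text names all member probe sets, up to 3 genes of lowest p in each pathway role and set genes of the pathway and inducer lists. It also names the 3 genes nearest to each member. Egr1, Fos, Ccl3, Ccl4 and Cxcl2 were named after their values were seen. Only some genes of the marker lists are named, and which ones was not fixed before their values were seen. For genes with several probe sets, the brightest was used.

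The alternatives were quantile normalization, median centring, dropping the dimmest 25% of probe sets, a trended robust prior, no moderation, a replicate block, array weights, leaving out each array and, for the pathway, averaging each gene's probe sets. Sums without Lyz2, the probe set gap and counts at unadjusted p were added after seeing the data.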

Additional observations from a re-analysis of the deposited data

Results flagged for a closer look

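In 4 of 37 measures checked, 1 control array stood far from the other 3, by the gap of the outermost control set against the range of the 4. Chance gives about 1 in 20. None of the 10 eicosanoid synthesis probe sets was among them, and all 4 cases were Ctrl 4. Il1a, Il1b and Tnf were high on the same arrays, so the 4 are not separate cases. The chance rate, which holds for separate measures, therefore does not apply to the count. Il1a lay at 8.66 in Ctrl 4 and at 6.40 to 6.62 in the other controls. Il1b lay at 8.08 there and at 5.07 to 5.38 in the others, and Tnf at 7.78 and at 4.82 to 5.22. Acsl3 lay at 5.12 in Ctrl 4 and at 5.40 to 5.45 in the others.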

How the results depend on the processing

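In limma the count of member probe sets past adjusted p 0.05 was 0 under all 14 alternatives, and so was that of the 46 pathway genes, also after averaging each gene's probe sets. The lowest adjusted p of a member was 0.356 (Ptgs1, array weights). At unadjusted p under 0.05 the members numbered 0, but 1 without variance moderation and 1 with array weights, Ptgs1 both times. Over all probe sets, the 13 past the threshold became 0 without variance moderation and 23 with the replicate block, and the 400 at unadjusted p under 0.05 became 1035 with array weights and 710 with the replicate block. With each array left out these counts ran from 13 to 16 and from 231 (without Ctrl 3) to 789 (without Ctrl 4), with 261 without Etoh 3.

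Of 10 member probe sets, 7 kept the sign of their difference under all 14 alternatives. Alox5 turned to -0.046 with array weights and -0.012 with the replicate block, and ran from -0.012 to 0.084 with each array left out. Alox15 ran from -0.18 to 0.058 (L06040_s_at) and from -0.25 to 0.0096 (S69383_at). Il1a turned to -0.29 with array weights and -0.081 with the block, and Il1b to -0.17 with array weights. With each array left out Il1a ran from -0.26 to 0.67, Il1b from -0.089 to 0.97, Anxa1 from -0.28 to 0.13 and Cebpb from -0.13 to 0.33. The cause was not tested. The deviations of same-numbered arrays from their group means correlated at r of 0.425, 0.0666 and 0.432. Differently numbered arrays were not set beside these, so whether the numbers mark pairs is not settled here. The main fit took no pairs. The replicate block, which sets Ctrl 1 aside, raised the probe sets past the threshold from 13 to 23. It changed no member's call.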
